A study of Mus musculus with 2 samples.

Results

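The cells described here are endothelial cells that carried Gja5 RNA together with RNA of 4 further genes, Htra1, Nkx2-3, Fbn1 and Ltbp4. A cell was chosen when it held at least 1 unique molecular identifier (UMI, one counted RNA molecule) of Gja5, at least 2 UMIs summed over the 4 genes, and at least 1 UMI of Cdh5 or Pecam1, which mark endothelium. The rule found 254 of the 9917 cells, 247 in the control library and 7 in the mutant library. The control cells among them are called the members. Counts of the 7 rule genes chose the members, so the levels of those genes are a description and no result.

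Gja5 encodes connexin 40, a gap junction protein of arterial endothelium. Arterial endothelium forms under Notch and VEGF signalling, and the vessel wall around it holds fibrillin and elastin fibres. Fbn1 encodes fibrillin, the scaffold of microfibrils; Ltbp4 encodes a protein that tethers latent TGF-beta to these fibres and helps assemble elastin; Htra1 encodes a secreted serine protease that cuts matrix proteins; Nkx2-3 encodes a homeobox factor of gut and spleen vessels. In mid-gestation embryos the large arteries are also where blood progenitors arise from endothelium.

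Single-cell RNA of C57BL/6J mouse embryos was measured with droplet-based 3′ sequencing to compare arterial endothelium with and without endothelial Mekk3. This kinase, encoded by Map3k3, lies upstream of the flow-induced factors Klf2 and Klf4. The control library came from Mekk3 fl/fl and fl/+ embryos (title and stage both day 9.5) and the mutant library from Mekk3 fl/-; Tie2Cre+ embryos (title day 9.5, stage day 9.7). Both held dorsal aorta with umbilical and vitelline arteries, from which CD31+ CD144+ ESAM+ cells had been sorted that were Ter119- and low or negative for CD41. Tie2Cre acts in endothelial and blood cells, and the number of embryos per library is not given. Each group had 1 library, so groups could not be tested and no p-value is given. Intervals are exact at 95%, Poisson for levels, Clopper-Pearson for shares and conditional binomial for ratios, and cover counting error only, not the spread between embryos.

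The control library held 6675 cells and 60790367 UMIs, the mutant library 3242 cells and 21512713 UMIs. A Cdh5 or Pecam1 UMI was present in 6089 control and 2769 mutant cells, here the endothelial cells. Members held 515 to 36838 UMIs per cell with a median of 5354 and 1829580 in all, against a median of 8145 in the 5842 other control endothelial cells. The median mitochondrial share was 5.70% in members and 3.98% in the others. Y-linked RNA was found in 61 members (24.7%), Xist without Y-linked RNA in 126, both in 5 and neither in 60, so the control members came from embryos of both sexes. In the mutant library none of the 3242 cells held Y-linked RNA. The 2 libraries shared 5 cell barcodes, 1 of them a member's. Map3k3 had 29 UMIs in the members (15.9 CPM, UMIs of the gene scaled to a common total of all UMIs in the set, interval 10.6 to 22.8) and 1 UMI in the 7 mutant cells, and its 3′ counts may lie outside the deleted exons, so they do not check the genotype.

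By GENCODE vM21 on GRCm38, Gja5 is at chr3:96904693-97077416 on the plus strand, Htra1 at chr7:130936111-130985660 on the plus strand and Nkx2-3 at chr19:43612325-43615892 on the plus strand. Fbn1 is at chr2:125300594-125507993 and Ltbp4 at chr7:27305136-27337692, both on the minus strand. The promoters of 4 genes are printed, because they belong to the rule genes Gja5 and Nkx2-3 and to Hey2 and Bmx, arterial genes that were high in the members without being in the rule. Each is the 250 bases before the RefSeq start (GRCm38.p6), read 5′ to 3′ in the direction of transcription, with motif matches in capitals. The Gja5 stretch, chr3:97032152-97032401 (plus strand), lies inside the GENCODE gene span, upstream of the RefSeq start. The others are chr19:43612075-43612324 (plus strand, Nkx2-3), chr10:30842784-30843033 (minus strand, Hey2) and chrX:164258194-164258443 (minus strand, Bmx).
Gja5: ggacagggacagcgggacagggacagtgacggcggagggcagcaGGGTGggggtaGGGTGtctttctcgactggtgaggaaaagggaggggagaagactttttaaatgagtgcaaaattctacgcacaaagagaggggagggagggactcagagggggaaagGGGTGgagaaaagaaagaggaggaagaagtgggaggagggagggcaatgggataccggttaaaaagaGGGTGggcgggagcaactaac
Nkx2-3: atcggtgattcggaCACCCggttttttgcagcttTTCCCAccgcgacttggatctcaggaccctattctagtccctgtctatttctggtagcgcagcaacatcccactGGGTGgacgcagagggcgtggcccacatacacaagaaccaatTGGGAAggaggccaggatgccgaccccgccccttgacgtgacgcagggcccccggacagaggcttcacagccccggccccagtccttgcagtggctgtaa
Hey2: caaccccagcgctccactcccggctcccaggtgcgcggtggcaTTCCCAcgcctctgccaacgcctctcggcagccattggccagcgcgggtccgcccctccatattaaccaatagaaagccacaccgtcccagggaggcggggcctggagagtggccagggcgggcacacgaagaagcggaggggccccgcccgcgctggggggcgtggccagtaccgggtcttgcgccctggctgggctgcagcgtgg
Bmx: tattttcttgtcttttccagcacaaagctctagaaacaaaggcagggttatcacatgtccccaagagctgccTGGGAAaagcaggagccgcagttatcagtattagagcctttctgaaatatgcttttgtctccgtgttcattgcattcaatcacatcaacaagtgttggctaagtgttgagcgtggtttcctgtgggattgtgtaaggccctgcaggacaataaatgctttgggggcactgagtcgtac
The capitals mark CACCC (the core bound by KLF factors), TNAAGTG (NKX2 factors), AACAAT (SOX factors) or TGGGAA (RBPJ, the DNA-binding partner of Notch), searched on both strands. Gja5 had 4 CACCC matches, all on the opposite strand, starting 206, 195, 88 and 21 bases before the start. Nkx2-3 had 2 CACCC matches at 236 and 142 bases and 2 TGGGAA matches at 216 and 100 bases. Hey2 had 1 TGGGAA match at 207 bases and Bmx 1 at 178 bases before the start. Among the 15 promoters matched of the 17 genes looked up (Gja5, the 4 summed genes and the 12 leading higher genes), 10 held CACCC (66.7%), against 54.5% of 27025 genes in the RefSeq table. TGGGAA was in 4 (26.7%, against 24.1%), TNAAGTG in 1 (6.67%, against 11.4%) and AACAAT in 1 (6.67%, against 10.9%). These matches describe letters in a window and not bound sites.

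Gja5 ran from 1 to 19 UMIs per member with a median of 3, at 473 CPM against 15.8 CPM in the other endothelial cells. Of the summed genes, Fbn1 was found in 172 members (69.6%, 0 to 10 UMIs per cell), Nkx2-3 in 141 (57.1%, 0 to 7), Htra1 in 137 (55.5%, 0 to 8) and Ltbp4 in 119 (48.2%, 0 to 5). Most members held more than 1 of the 4 genes: 38 held 1, 124 held 2, 57 held 3 and 28 held all 4. Fbn1 and Nkx2-3 were found together in 93 members, 54.1% of those with Fbn1 and 66.0% of those with Nkx2-3. Htra1 and Nkx2-3 were found together in 79, 57.7% and 56.0% of those with each. Cdh5 had a median of 5 UMIs per member (864 CPM) and Pecam1 a median of 2 (334 CPM). A Gja5 UMI was also held by 35 of 1908 control cells marked as venous by Aplnr and Nr2f2 (1.83%, median total 12130). Among all control endothelial cells the share was 10.5%. Of the 35, 11 met the whole rule. The source of Gja5 UMIs in the venous-marked cells, free RNA or other, was not tested.

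The levels of genes outside the rule are given on both sides of the threshold. Of 640 control Gja5 cells, 259 had a sum of 0, 134 a sum of 1, 67 a sum of 2 and 180 a sum of 3 or more. Tmem100, a membrane protein gene downstream of BMP signalling that marks arterial endothelium and was not in the rule, stood at 114, 197, 192 and 326 CPM along that order, so for this gene the cells just inside (192) and just outside (197) were alike. Pde3a, a cyclic nucleotide phosphodiesterase gene of vessel wall and heart, stood at 8.10, 17.2, 45.6 and 87.8 CPM. Isl1, a LIM homeobox factor of the second heart field, stood at 10.1, 27.8, 31.2 and 84.2 CPM. Slc2a1, the GLUT1 glucose transporter gene, ran the other way at 454, 295, 122 and 51.7 CPM. Gja4, which encodes connexin 37, varied less, at 843, 813, 753 and 711 CPM. Acta2, smooth muscle actin, had no such order, at 90.5, 264, 122 and 229 CPM. Nor had Stmn2, a microtubule-destabilising protein gene, at 429, 289, 502 and 524 CPM. At the threshold itself Slc2a1, Acta2, Stmn2 and Pde3a thus differed between sums of 1 and 2, and Tmem100 and Isl1 were close. The median total was 3571, 3502, 3496 and 6225 UMIs, so the last step also held deeper cells; the part of depth in it was not tested. In the 90 cells with a sum of 2 or more but no Gja5 UMI, Tmem100 was at 38.6 CPM, Gja4 at 171 and Slc2a1 at 83.7.

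**Figure D1:**
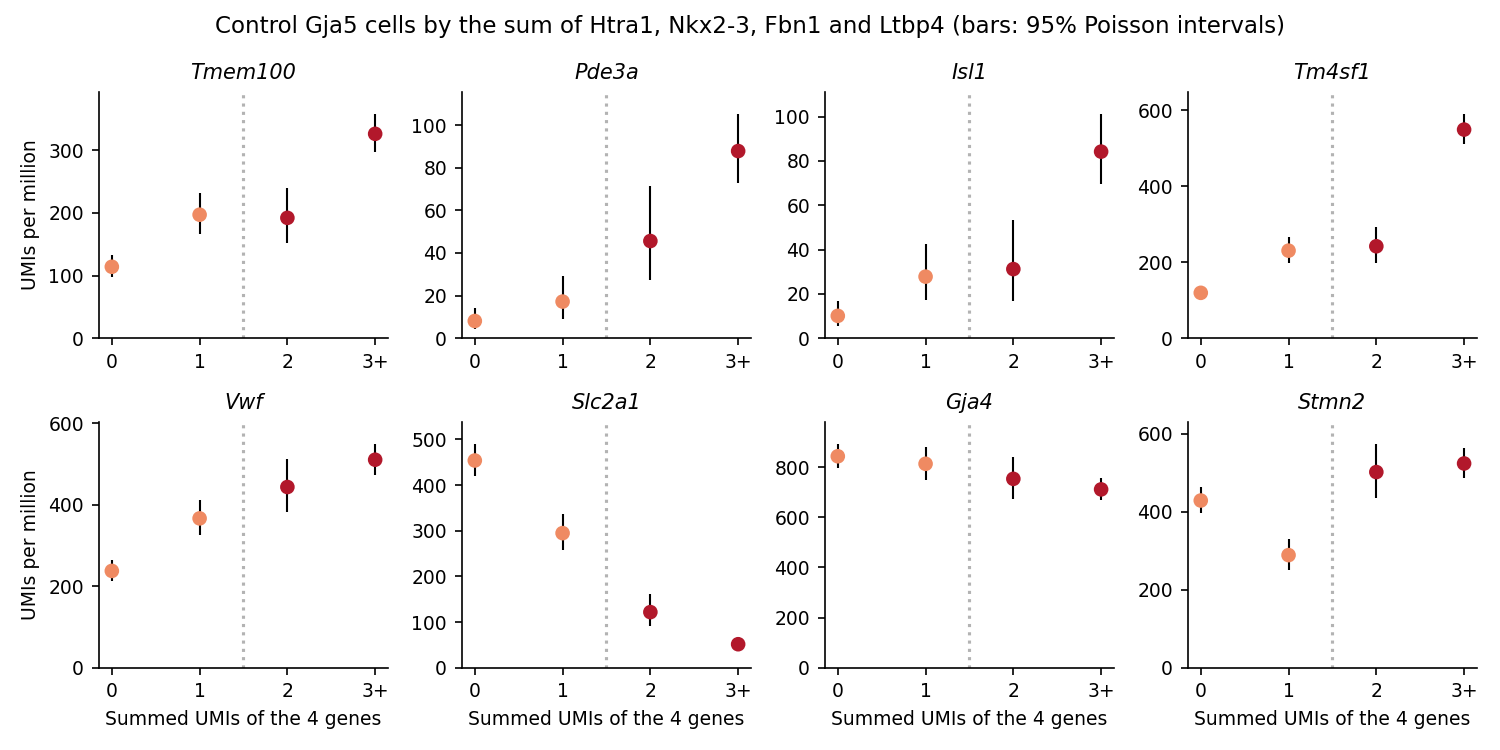
Levels in CPM of 8 genes outside the rule in control Gja5 cells, by the summed UMIs of Htra1, Nkx2-3, Fbn1 and Ltbp4; points are pooled levels, bars 95% Poisson intervals, and the dotted line is the threshold. Tmem100, Pde3a, Isl1 and Tm4sf1 are highest at a sum of 3 or more, while Slc2a1 runs from 454 down to 51.7.

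Against all other control endothelial cells, members were high in arterial genes and low in venous ones. A gene was called when it reached 20 CPM in either set and its whole interval lay past 2-fold: 303 of 5677 measured genes were called higher (5.34%) and 48 lower (0.846%). With TMM factors, which move every log2 ratio down by 0.27, the split was 224 higher and 101 lower. Outside the rule, Pde3a had the ratio with the highest lower bound. It was at 78.2 CPM against 1.16, 67.2-fold (49.8 to 91.6), found in 37.2% of members and 0.907% of the other cells, with 0 to 5 UMIs per member. P4ha3, a subunit of collagen prolyl hydroxylase, was at 47.6 CPM against 0.805, 59.1-fold (40.8 to 86.7). Mt3, a metallothionein, was at 25.1 CPM against 0.340, 74.0-fold (42.5 to 134). Each of these 3 genes was found in a minority of members, P4ha3 in 24.3% and Mt3 in fewer.

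The label marker Tmem100, outside the rule, was at 295 CPM in members (0 to 14 UMIs per cell, median 1) against 8.74 CPM, 33.8-fold (29.8 to 38.2), and found in 66.8% of members and 4.57% of the other cells. Tm4sf1, a tetraspanin-like membrane gene of vascular endothelium, was at 479 CPM against 18.4, 26.0-fold (23.7 to 28.5), with 0 to 29 UMIs per member. Sdpr (Cavin2), a structural protein of caveolae, was at 178 CPM against 4.90, 36.3-fold (30.8 to 42.7). Isl1 was at 72.1 CPM against 2.40, 30.1-fold (23.5 to 38.6), and found in 79 members. The other leading higher genes were Emp2 (38.7-fold), the arterial tyrosine kinase gene Bmx (31.4-fold), the Notch target Hey2 (27.2-fold), the Wnt antagonist gene Dkk2 (26.9-fold) and the retinoic acid hydroxylase gene Cyp26a1 (24.8-fold). All 12 leading higher genes were lower in the other endothelial cells than in the other Gja5 cells as well.

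The leading lower genes held receptors of veins. Aplnr, the apelin receptor gene, was at 18.0 CPM against 119, a ratio of 0.152 (0.104 to 0.213). Nrp2, a co-receptor of venous and lymphatic endothelium, was at 19.7 CPM against 127 (0.155), and Nr2f2, the COUP-TFII factor of venous identity, at 19.7 CPM against 109 (0.180, interval 0.126 to 0.249). Mt1, the metallothionein gene, was at 2.19 CPM against 27.1 (0.0807), opposite in direction to Mt3. Clec1b (55.2 CPM against 267), Gng2 (39.4 against 192), Sgk1 (44.3 against 204), Dok4 (10.4 against 59.8), Fam167b (5.47 against 37.4), Slc7a5 (4.37 against 27.2) and Gpr183 (3.83 against 27.0) were also among them.

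**Figure D2:**
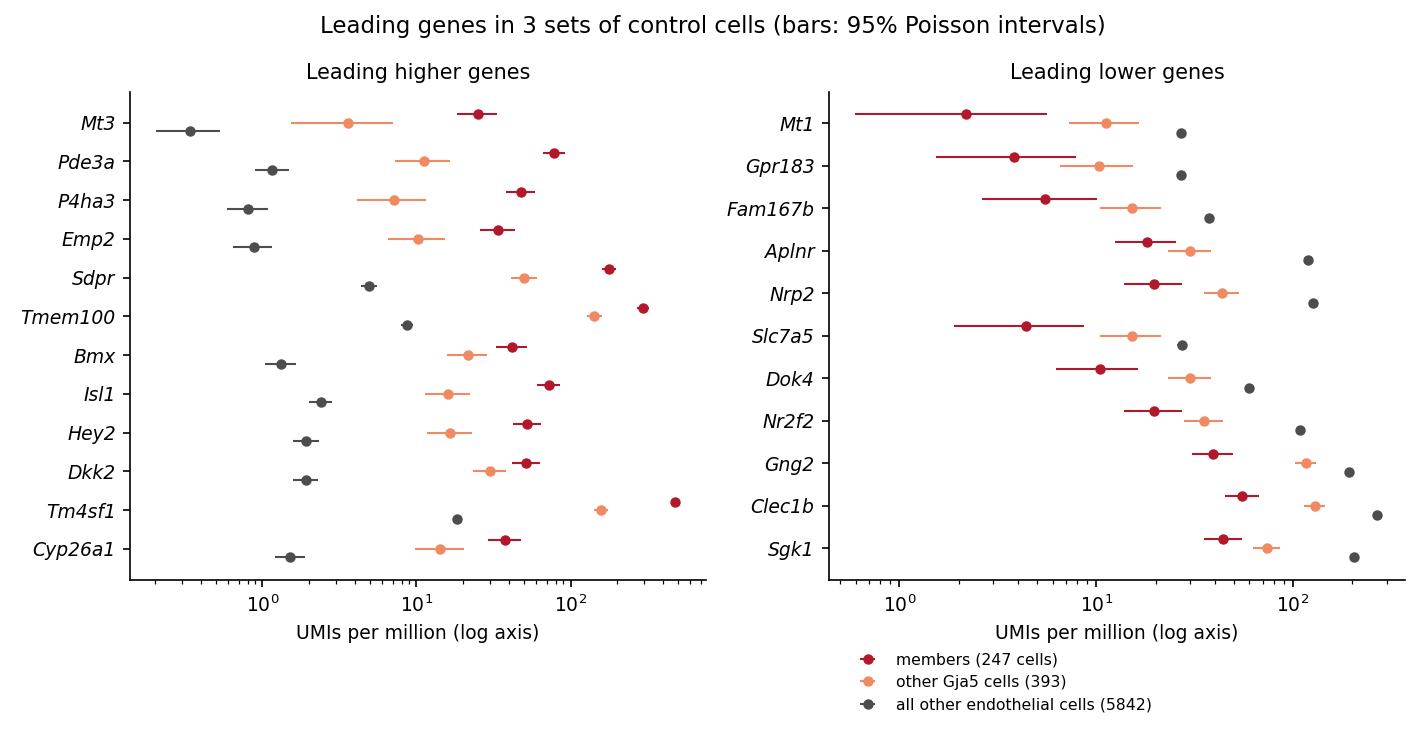
Levels in CPM (log axes) of leading higher and leading lower genes in members, other Gja5 cells and all other control endothelial cells; bars are 95% Poisson intervals. The 393 other Gja5 cells, which are also part of the 5842 others, lie between the members and the rest for every gene drawn.

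By role, the ligands and receptors of arterial identity came first. Of 18 measured genes of the arterial list 17 were called higher and none lower. The list's median log2 ratio was 2.35, against 0.13 over all measured genes. The exception was the receptor gene Acvrl1. Gja4 was at 721 CPM against 87.4, 8.25-fold (7.76 to 8.77), and found in 91.5% of members. The ephrin ligand gene Efnb2 was at 249 CPM against 48.7 (5.11-fold), the Notch ligand genes Jag1 at 211 against 43.0 (4.91-fold) and Dll4 at 67.8 against 18.1 (3.74-fold), and the receptor gene Notch1 at 166 against 71.6 (2.31-fold). Among the factors, Hey1 was at 116 CPM against 22.8 (5.09-fold) and Sox17 at 291 against 104 (2.78-fold). Of 10 measured genes of the Notch list 5 were higher. The label's arterial wording thus matched its markers in these cells.

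The venous list gave 4 of 9 measured genes lower (Nrp2, Aplnr, Mmrn1 and Nr2f2) and none higher, with a median of -0.87. Of 15 pan-endothelial genes, Tek and Tie1, a receptor pair of the angiopoietin pathway, were higher and none was lower. Of 12 vascular guidance genes 6 were higher and 1 lower: Nrp1, the co-receptor of arterial VEGF and semaphorin signalling, was at 859 CPM against 208 (4.13-fold), while its relative Nrp2 was the lower one. The secreted guidance genes Slit2 (26.8 CPM against 4.51) and Sema3g (35.5 against 6.13) were also higher.

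Matrix genes were mixed. Of 12 measured elastic fibre and interstitial matrix genes outside the rule, 4 were higher and none lower (median 0.53). Fn1, fibronectin, was at 1038 CPM against 144, 7.22-fold (6.86 to 7.59). Ltbp1, a relative of Ltbp4, was at 56.8 CPM against 4.15 (13.7-fold), the microfibril gene Mfap2 at 147 against 43.3 (3.39-fold) and the other fibrillin gene Fbn2 at 151 against 55.4 (2.72-fold). Emilin1, which sits at the elastin and microfibril interface, was at 76.0 CPM against 70.1. Eln, the elastin gene, was scarce: 20 UMIs in all members (10.9 CPM) against 22 in the other cells (0.393 CPM), below the 20 CPM needed for a call. Fbln5, which links elastin to cells, had 20 UMIs against 6, and Mgp, matrix Gla protein, 19 against 4. Of 13 basement membrane genes 4 were higher, Lama5 (25.1 CPM against 2.13, 11.8-fold), Agrn (3.15-fold), Col18a1 (3.10-fold) and Col4a2 (2.34-fold), and none lower.

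Signalling genes downstream of BMP, flow and Mekk3 followed. Of 15 BMP and TGF-beta genes 5 were higher and none lower (median 0.73): Smad6, an inhibitor of BMP signalling, was at 76.0 CPM against 6.26 (12.1-fold) and the inhibitor gene Smad7 at 150.3 against 53.7 (2.80-fold). The endothelial receptor genes Eng (142 CPM against 90.3) and Acvrl1 (89.6 against 47.1) were not called. Of 15 flow and KLF responsive genes 6 were higher (median 1.22): Gja4, Edn1, the endothelin gene, at 331 CPM against 42.4 (7.80-fold), the water channel gene Aqp1 (8.94-fold), Tek (3.38-fold), the caveolin gene Cav1 (2.65-fold) and Icam2 (2.33-fold). Klf2 itself was at 652 CPM against 415 (1.57-fold, 1.48 to 1.66) and Klf4 at 103 against 54.3 (1.90-fold), neither called. The Klf2 log2 ratio was 1.14 among cells with Y-linked RNA (61 members). It was 0.21 among cells with Xist and no Y-linked RNA (126 members). Of the 1192 Klf2 UMIs of the members, 90 were in 1 cell. Sex and embryo cannot be told apart in this split. Of 11 measured Mekk3 pathway genes only Heg1, the transmembrane partner of the CCM complex, was called, at 74.9 CPM against 26.4 (2.84-fold).

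Position and growth genes came next. Gata6, a factor of heart and smooth muscle lineages, was at 77.6 CPM against 7.22 (10.7-fold), and with Isl1 made up both measured genes of the position list. None of 9 measured Hox genes was called in either direction, and the median was 0.68. None of 19 S phase genes (median -0.22) or 20 G2/M genes (median -0.64) was called, while with TMM factors 1 G2/M gene was lower. All 20 G2/M genes lay below a ratio of 1, and of the S phase genes 16 lay below and 3 above. Over all 5677 measured genes 2322 lay below. The G2/M list summed to 3009 CPM against 4575. Within it Mki67, a marker of cycling cells, was at 73.2 CPM against 75.3. Ccnd1, cyclin D1, was at 57.4 CPM against 176 (0.326), and Cdkn1c, the p57 inhibitor gene, at 852 against 305 (2.79-fold). Of 14 hypoxia and glycolysis genes Vegfa was higher and Slc2a1 lower, at 67.8 CPM against 179, a ratio of 0.378 (0.314 to 0.451). Called or not, 12 of the 14 lay below a ratio of 1 and 2 above, with a median of -0.71. None of 6 YAP target genes was called, and 1 of 9 genes of the response to cell dissociation was higher.

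**Figure D3:**
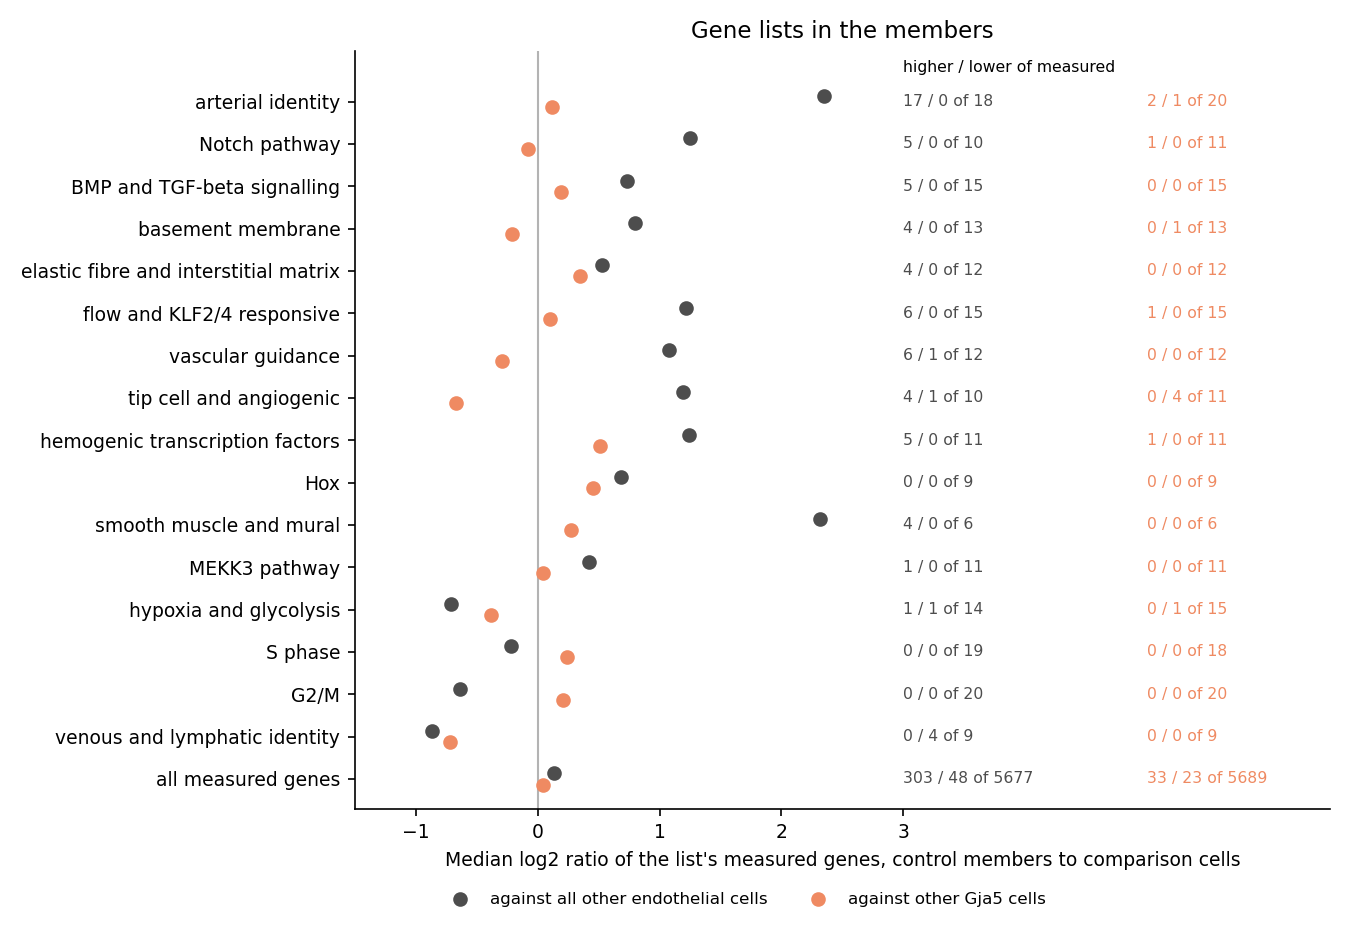
Median log2 ratio of the measured genes of 16 lists and of all measured genes, members against all other endothelial cells (grey) and against other Gja5 cells (orange), with the number called higher and lower of those measured. Arterial identity has the highest median against the rest (2.35) and lies at 0.12 against other Gja5 cells.

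Set against the 393 other Gja5 cells, members differed in far fewer genes: 33 of 5689 were called higher (0.580%) and 23 lower (0.404%). Those cells had a median total of 3571 UMIs and 2235821 UMIs in all. Of the 33, 32 were also among the 303 called against all other cells, 97.0% of the shorter list and 10.6% of the longer one; for lower genes 7 were shared, 30.4% and 14.6%. Since the other Gja5 cells are part of the rest, the 2 comparisons share cells. Pde3a stood at 78.2 CPM against 11.2 (6.99-fold, 4.55 to 11.2) and Mt3 at 25.1 against 3.58 (7.03-fold). P4ha3 stood at 47.6 CPM against 7.16 (6.64-fold), Megf6 at 32.2 against 4.92 (6.55-fold) and Ptn, pleiotrophin, a secreted growth factor gene, at 59.6 against 12.1 (4.93-fold). Isl1 stood at 72.1 CPM against 16.1 (4.48-fold, 3.08 to 6.67), Sdpr at 178 against 50.1 (3.55-fold), Edn1 at 331 against 103 (3.20-fold), Hey2 at 52.5 against 16.5 (3.17-fold) and Tm4sf1 at 479 against 157 (3.05-fold). The homeobox factor genes Meis1 (39.9 CPM against 10.3) and Meis2 (203 against 64.9) were both higher.

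The general arterial genes did not separate members from other Gja5 cells past 2-fold. Gja4 stood at 721 CPM against 833 (0.865), Stmn2 at 519 against 382 (1.36-fold), Dll4 at 67.8 against 111 (0.611) and Fn1 at 1038 against 584 (1.78-fold). Tmem100 stood at 295 CPM against 142, 2.08-fold with an interval of 1.80 to 2.39 that spans 2, and Jag1 at 211 against 100.2 (2.11-fold, 1.78 to 2.49). Of 20 measured arterial genes, Hey2 and Edn1 were higher and Cxcr4, the chemokine receptor gene, lower. Of 15 flow and KLF responsive genes only Edn1 was called (median 0.10), and of 15 BMP and TGF-beta genes none was (median 0.19). None of 12 matrix genes outside the rule was called, and 20 more lay below 20 CPM. Of these 20, 16 had more CPM in the members. Htra3 (4 UMIs against 17) and Tgfbi (4 against 7) had less, and Mfap4 and Ltbp2 were at 0 in both. Of the 16, Emilin2, Loxl1, Postn and Tgfb3 had 1 UMI against 0. Among all 5689 measured genes 3130 were above a ratio of 1. That share was not taken for all genes below 20 CPM, so the 16 are a description only. Fbln5 had 20 UMIs against 0, Mgp 19 against 1, Eln 20 against 3, Efemp1 20 against 2 and Mfap5 21 against 2. How many members carried these UMIs is not given here, so the totals do not show how widely they were spread.

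Lower than in other Gja5 cells were Slc2a1, genes of sprouting cells and some others. Slc2a1 was at 67.8 CPM against 401, a ratio of 0.169 (0.139 to 0.204), found in 30.8% of members and 68.2% of the other Gja5 cells. Esm1, a secreted proteoglycan gene of tip cells, was at 5.47 CPM against 50.5 (0.108). The matrix gene Vwa1 was at 9.29 CPM against 54.6 (0.170), Igfbp7 at 13.1 against 59.0 (0.222), Igfbp3 at 191 against 600.2 (0.319), Kitl, the stem cell factor gene, at 30.6 against 111 (0.276), and Cxcr4 at 30.1 against 84.1 (0.358). Gja1, which encodes connexin 43, was at 31.7 CPM against 143 (0.221) and Tmem255a at 32.2 against 137 (0.235). Of 11 measured genes of the tip cell and angiogenic list 4 were lower and none higher, with a median of -0.67 against 0.04 over all measured genes. Of 15 measured hypoxia and glycolysis genes Slc2a1 alone was called lower and 14 were not called. Called or not, 14 of the 15 lay below a ratio of 1 and 1 above, with a median of -0.38. None of the S phase (18) or G2/M (20) genes measured was called, and 17 and 13 of them lay above a ratio of 1. Against all other endothelial cells the tip cell and angiogenic list instead had 4 of 10 measured genes higher, Cxcr4 among them. There 1 gene was lower and the median log2 ratio was 1.19.

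A further set for comparison was the 460 control cells with both Gja4 and Stmn2 that were not members, arterial cells by other genes, with a median total of 7182. Of 5623 measured genes 122 were higher in members (2.17%) and 32 lower (0.569%). Tmem100 stood at 295 CPM against 66.4 (4.45-fold), Pde3a at 78.2 against 4.10 (19.0-fold), Isl1 at 72.1 against 10.6 (6.79-fold), Tm4sf1 at 479 against 79.4 (6.03-fold) and Hey2 at 52.5 against 10.9 (4.83-fold). Slc2a1 was again lower, at 67.8 CPM against 364 (0.186, interval 0.154 to 0.224). Efnb2 stood at 249 CPM against 133 (1.87-fold) and was not called. Of 19 arterial genes 5 were higher (Jag1, Bmx, Hey2, Tmem100 and Edn1) and none lower.

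Members lay near each other in expression also when the 7 rule genes and Tmem100 were left out. Among the 20 nearest neighbours of each member, on 30 principal components, 58.0% ± 26.1 (SD over 247 cells) were members, against 4.06% of all control endothelial cells. For other Gja5 cells the share of members among neighbours was 15.4%, for the Gja4 and Stmn2 cells 9.68% and for all other cells 1.83%. The spread between members was wide, from 0 to 100%, with 8 members that had no member among their neighbours. A further 22.6% of the neighbours of members were other Gja5 cells. These shares describe cells of 1 library.

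Clustering of the 6089 control endothelial cells without those 8 genes put 204 of the 247 members (82.6%) in 1 cluster of 365 cells, cluster 1, whose leading genes were P4ha3, Pde3a, Mt3, Bmx, Acta2, Htra1, Tmem100, Ltbp4, Isl1 and Hey2. That cluster also held 104 of the other Gja5 cells (26.5%), whereas 213 of them (54.2%) were in cluster 3, led by genes that included Cxcr4, Aqp1 and Gja4, with 11 members (4.45%). Cluster 2, of 135 cells led by the blood genes Rac2, Prtn3, Tyrobp, Spi1, Rgs18 and Lyz2 among others, held 17 members (6.88%). Cluster 4, of 298 shallow cells (median total 2345) led by Igf2 and H19 among others, held 10 members (4.05%). The 5 remaining members were in clusters 5, 6 and 7, with 1 in cluster 7, led by Dcn, Col1a1, Hand1 and Lum among others.

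The 17 members in cluster 2 differed from the 204 in cluster 1 in both blood and arterial genes: of 5758 measured genes 89 were higher (1.55%) and 145 lower (2.52%), among cells chosen by clusters of these same counts, so this is a description. Runx1, the factor needed for blood to arise from endothelium, had 47 UMIs in 16 of the 17 cells (173 CPM) and 8 UMIs in 6 of the 204 cells (5.71 CPM). Spi1, the PU.1 factor of myeloid cells, had 41 UMIs against 0, Myb 19 against 0 and Gfi1, a repressor that shuts endothelial genes during blood formation, 16 against 1. Gja5 was at 132 CPM against 541, Gja4 at 250.1 against 806, Cdh5 at 423 against 971 and Hey2 had 0 UMIs against 94. Htra1 was at 3.68 CPM against 187 and Ltbp4 had 3 UMIs against 175, while Nkx2-3 was at 139.8 against 169, so Nkx2-3 and Fbn1 (66.2 CPM against 212) gave most of the summed UMIs of these 17 cells. Gata2 and Mecom, factors shared by arterial and blood-forming endothelium, were present in both. Mecom was at 154 CPM against 240.0 CPM. Gata2 had 12 UMIs in the 17 cells and 56 in the 204. These Gata2 numbers are raw counts, not scaled to the unlike totals of the 2 sets. The 17 cells were deeper, with a median total of 14827 UMIs against 5278; doublets were not called, and their part was not tested.

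**Figure D4:**
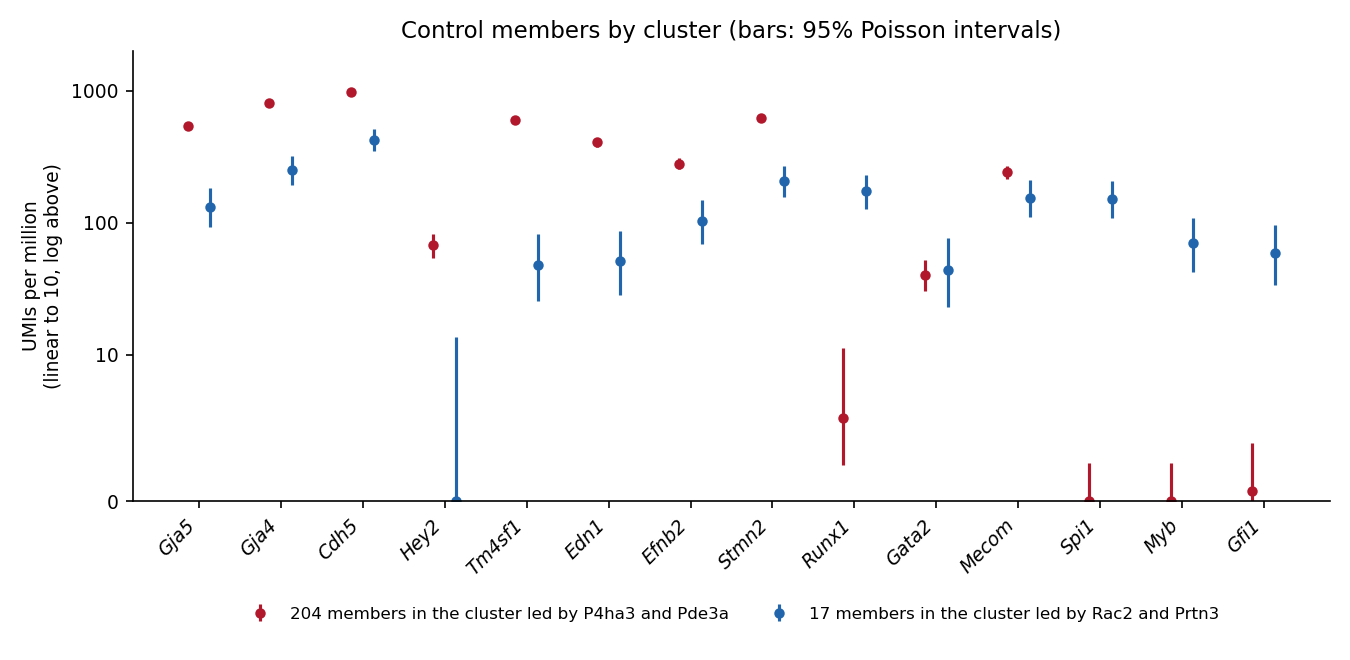
Levels in CPM of arterial, endothelial and blood-forming genes in the 204 members of cluster 1 (red) and the 17 members of cluster 2 (blue); the axis is linear up to 10 and logarithmic above, and bars are 95% Poisson intervals. Runx1, Spi1, Myb and Gfi1 are high in cluster 2 and near 0 in cluster 1, while the arterial genes are higher in cluster 1.

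These few cells carried most of the Runx1 RNA and all of the Spi1 RNA of the members. Over all members Runx1 was at 30.1 CPM against 7.78 in the other endothelial cells (3.86-fold, 2.86 to 5.12), found in 8.91% of members, and 5 of 11 measured hemogenic factor genes were called higher. The 17 were next left out of the members only. The comparison cells kept theirs of cluster 2, 9 of them among the other Gja5 cells. Ratios without the 17 therefore do not compare like sets. Without the 17 members the Runx1 log2 ratio was -0.51 in place of 1.96. Spi1 had 0 UMIs in the other 230 members, at least 4.09-fold lower than in the other endothelial cells by the floor of 3 UMIs, where over all members its log2 ratio was 1.52. Without the 17 cells 3 of 9 measured genes of the list were higher. Against other Gja5 cells the Runx1 log2 ratio was 0.93 with them and -1.54 without. Htra1 RNA and Runx1 RNA were thus mostly in different members. Mecom, at 218 CPM against 31.5 over all members (6.93-fold), was high in cluster 1 as well.

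The summed genes split the members to unequal extents. Between the 137 members with Htra1 and the 110 without, 2 of 5544 measured genes were called higher (0.0361%) and 17 lower (0.307%). The higher ones were Pdgfa, a growth factor gene for mural cells, at 60.8 CPM against 13.3, and Pmepa1, a TGF-beta target gene, at 236 against 89.5. The lower ones included Spi1 (0.997 CPM against 48.4), Runx1 (4.99 against 60.5) and Gfi1 (0 against 20.6), the genes of cluster 2. The other 3 splits gave fewer calls. For Nkx2-3 none of 5770 genes was higher (0%) and 5 were lower (0.0867%), for Fbn1 1 of 5538 was higher (0.0181%) and none lower (0%), and for Ltbp4 1 of 5662 was higher (0.0177%) and 2 lower (0.0353%).

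RNA of other cell types was checked over whole marker lists. Of 17 smooth muscle and mural markers 12 were detected in members, summing to 793 CPM against 242 in other endothelial cells and 704 in other Gja5 cells, with 0 to 99 UMIs per cell and a median of 3. Des, Myocd, Rgs5, Cspg4 and Itga8 were at 0. Acta2 was at 204 CPM (0 to 46 UMIs, in 31.2% of members) against 11.9 (17.1-fold) and at 149 in other Gja5 cells. Tagln was at 164 CPM against 12.2 (13.4-fold), and within the members it was at 282 CPM in the 77 cells with Acta2 and 88.0 in the 170 without (3.20-fold, 2.50 to 4.12). Mesenchyme markers (12 of 14 detected) summed to 48.6 CPM against 19.9, with Col1a1 and Tbx18 at 0. They were found in 51 members (20.6%) at 0 to 29 UMIs per cell, so 29 of their 89 UMIs came from 1 member. Blood markers (10 of 13) summed to 152 CPM against 69.3, with Gata1, Csf1r and Cd52 at 0, and erythroid markers to 22.4 CPM against 749. The part of RNA from other cells in the members' levels was not tested. Without any cell that held a mesenchyme or blood marker UMI, the log2 ratio against the rest was 6.70 for Pde3a (6.07 with them), 5.14 for Isl1 (4.91) and 4.71 for Tm4sf1 (4.70).

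In the mutant library 7 of 2769 endothelial cells met the rule, 0.253% (0.102 to 0.520), against 247 of 6089, 4.06% (3.57 to 4.58), in the control. Depth differed, so cells were thinned to a fixed number of UMIs. At 5000 UMIs 80 of 4146 control cells met the rule (1.93%, 1.53 to 2.40; 1943 shallower cells left out) and 0 of 1646 mutant cells (1123 left out), which allows a share of up to 0.182% by a floor of 3 counts, or 0.224% by the exact interval. At 2500 UMIs the shares were 1.15% (60 of 5207) and 0.0459% (1 of 2177, 0.00116 to 0.256). Gja5 was found in 640 control cells (10.5%, 9.75 to 11.3) and 54 mutant cells (1.95%, 1.47 to 2.54), or 5.16% and 0.972% at 5000 UMIs. Of the Gja5 cells 38.6% (34.8 to 42.5) met the rule in the control and 7 of 54 (interval 5.37% to 24.9%) in the mutant. In venous-marked cells 11 of 1908 met the rule in the control (0.577%, 0.288 to 1.03), and in the mutant library 0 of 238 (median total 10722) met it or held a Gja5 UMI (exact upper limit 1.54%). At that limit the mutant share of 0.253% cannot be set apart from the share in mutant venous-marked cells. Among cells without Gja5, a sum of 2 or more was found in 1.65% (90 of 5449) and 1.55% (42 of 2715). With 1 library a group, the genotype, the stage on the label, the sexes of the embryos and the library cannot be told apart here.

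**Figure D5:**
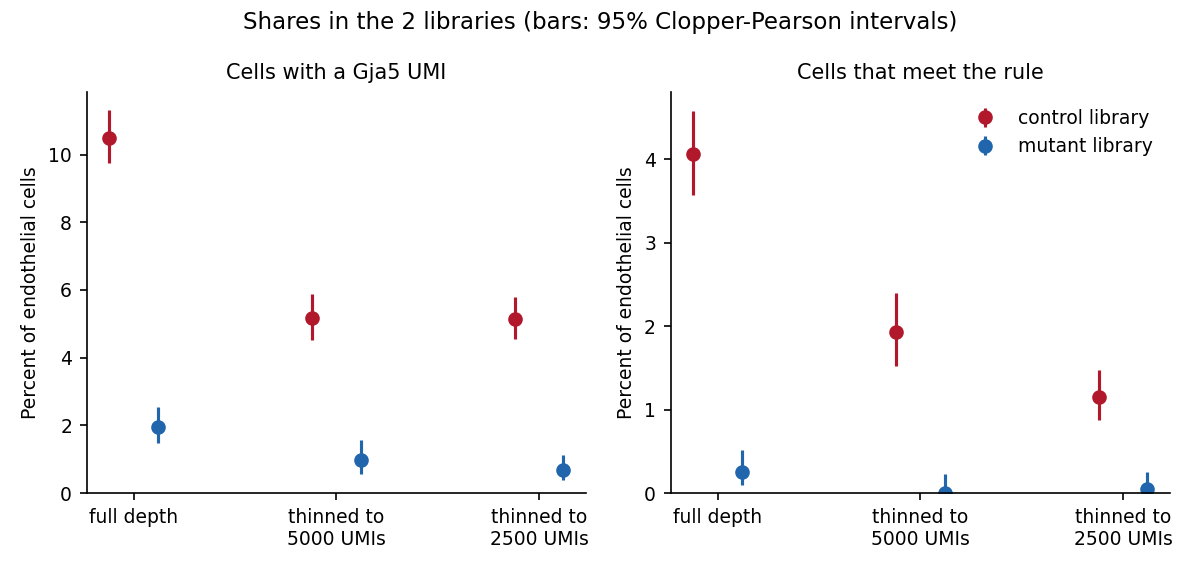
Percent of endothelial cells with a Gja5 UMI (left) and of cells that meet the rule (right) in the control (red) and mutant (blue) library, at full depth and after thinning to 5000 or 2500 UMIs; bars are 95% Clopper-Pearson intervals. The mutant shares lie below the control shares at each depth.

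The 7 mutant cells were close to the threshold. Of them 6 held 1 Gja5 UMI and 1 held 3, and the summed genes gave 2 UMIs in 6 cells and 3 in 1 cell. Their totals were 5851, 1685, 5795, 1602, 4693, 4648 and 7814 UMIs. In that order Tmem100 had 0, 1, 0, 1, 2, 0 and 5 UMIs, Gja4 0, 4, 4, 0, 4, 0 and 0, and Stmn2 0 in every cell. Tagln had 67, 0, 0, 7, 9, 4 and 0 UMIs and Slc2a1 11, 0, 15, 1, 3, 9 and 3. The high Tagln count came from 1 cell, while Slc2a1 was in 6 of 7. Slc2a1 reached 1309 CPM (943 to 1769), against 67.8 CPM in the control members; at 7 cells no ratio between the libraries' members was made.

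All Gja5 cells give a larger base for the same view, 54 mutant cells (median total 4677) and 640 control cells (4222), the control ones including the members. The summed genes were lower in the mutant ones, Nkx2-3 at 12.6 CPM against 75.3, Ltbp4 at 12.6 against 57.8, Fbn1 at 37.7 against 96.9 and Htra1 at 28.2 against 73.3. Among genes that lead in the members, Pde3a was at 12.6 CPM (3.42 to 32.1) against 41.3, Dkk2 at 6.28 (0.760 to 22.7) against 39.6 and Tmem100 at 113 (79.1 to 156) against 211. Tm4sf1 was higher, at 405 CPM (338 to 481) against 302, as were Edn1, at 408 (341 to 484) against 206, and Vwf, the von Willebrand factor gene, at 649.6 (564 to 744) against 378. Isl1, at 43.9 CPM (24.0 to 73.7) against 41.3, Hey2, at 28.2 (12.9 to 53.6) against 32.7, and Bmx, at 31.4 against 30.5, rest on 14, 9 and 10 mutant UMIs and could not be told from the control at this depth. Stmn2 was at 3.14 CPM against 443 and Gja4 at 301 against 783. Klf2 was at 132 CPM against 555 and Klf4 at 53.4 against 74.5. Higher in the mutant Gja5 cells were Slc2a1 (998 CPM against 251), the glucose transporter gene Slc2a3 (675 against 10.6), Tagln (1211 against 139.7), Acta2 (763 against 174) and Cyp26a1 (223 against 24.8). Single cells weighed on the smooth muscle genes. Of the 47 mutant Gja5 cells outside the rule, 1 held 319 of their 784 UMIs of the smooth muscle list. Of the 7 inside, 1 held 67 of 87 Tagln UMIs. Tagln was found in 42.6% of mutant and 26.7% of control Gja5 cells. The levels come from 1 library each. The smooth muscle markers Acta2 and Tagln were higher beside the other differences, and their part in them was not tested.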

How the data were processed

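Raw UMI counts of 27998 genes in 9917 cells were deposited by the authors, per the file headers; Cell Ranger (no version given) and build mm10 were used, per the submitters' processing notes. Each cell's library came from the genotype word of the deposited cell table, and its deposited mitochondrial fraction and total count were set beside the matrix. The filter on cells is not given in the sources used here, and no cell held under 501 UMIs. No doublet caller was run and no free RNA was removed.

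Members were found by the counting rule. Counts were summed over cells and divided by the summed total to give CPM; before a log2 ratio was taken, 0.5 UMI was added on either side. Cells were not treated as replicates. Neighbours and Leiden clusters used 30 components without the 7 rule genes and Tmem100 (Python 3.11.15, numpy 2.4.6, scipy 1.17.1, pandas 2.3.3, scikit-learn 1.9.0, leidenalg 0.10.2, igraph 0.11.9). TMM factors came from edgeR 4.0.16 in R 4.3.3. The ratio and interval steps were tested on simulated data. Thinning drew UMIs without replacement.

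Named genes were the 12 leading ones each way against other endothelial cells and 8 each way against other Gja5 cells, by the interval bound nearest to 1, plus a set of always-named genes and up to 4 per list. Mitochondrial, ribosomal-protein, hemoglobin, sex-linked and predicted genes were left out of the leading ones, and 1 gene that the rule takes is not reported here. Genes named besides, among them those of the within-member splits, were chosen after their values were seen. The members and the gene lists were chosen with earlier results of these data known. Gene positions come from GENCODE vM21 and promoters from a RefSeq table.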

Additional observations from a re-analysis of the deposited data

Results flagged for a closer look

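Slc2a1 differed in direction between the libraries. In the mutant library it was at 1309 CPM in the 7 cells that met the rule and 543 CPM in the other endothelial cells, a log2 ratio of 1.29 (2.41-fold, 1.74 to 3.26, from 42 UMIs). In the control library it was at 67.8 CPM in members and 179 CPM in the other endothelial cells, a log2 ratio of -1.40 (0.378-fold, 0.314 to 0.451). The 42 mutant UMIs were unevenly spread over the 7 cells, at 11, 0, 15, 1, 3, 9 and 3. Over all 54 mutant Gja5 cells Slc2a1 was at 998 CPM, so a high level was not particular to the cells meeting the rule. The opposite directions drew attention to this gene. The difference itself was not tested, since each group had 1 library.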

How the results depend on the processing

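With 1 library per group no replicate could be left out, and no paired analysis was possible because each group has a single library and no test was made. Against other endothelial cells, the 303 higher and 48 lower calls became 539 higher at a minimum of 5 CPM, 178 and 28 at 50 CPM, 557 and 139 at 1.5-fold, and 171 and 22 at 3-fold. TMM factors gave 224 and 101, and cells with Y-linked RNA 266 and 29, on fewer cells (61 against 1536). Against other Gja5 cells, the 33 higher and 23 lower calls became 68 and 40 for sums of at least 3 against 0. Higher calls were 60 at 5 CPM, 16 at 50 CPM and 21 in cells with Xist and no Y-linked RNA; lower calls were 9 in cells with Y-linked RNA and 15 without the 17 members of the blood-led cluster. Without those members Runx1 turned to -0.51 and Spi1 to -4.62 (log2; set by the added 0.5 UMI, since it had 0 UMIs left, and at least 4.09-fold lower by the floor) against other endothelial cells, and Runx1 to -1.54 against other Gja5 cells. The 5 hemogenic factor genes called higher ranged from 1 to 6 over 20 alternatives, 9 of which moved the count by over 1.5 times. The splits by sex-linked RNA and by the blood-led cluster were chosen after seeing the data. The latter left cells of that cluster out of the members only, while the comparison cells kept theirs. The control share of 4.06% became 1.93% and 1.15% after thinning to 5000 and 2500 UMIs, 3.35% for Gja5 of at least 2, 6.26% and 2.96% for sums of at least 1 and 3, and 3.50%, 3.37%, 2.92% and 3.55% without Htra1, Nkx2-3, Fbn1 or Ltbp4 in the sum. It was 2.40% (30 of 1249) without cells holding smooth muscle, mesenchyme or blood marker RNA. The mutant share of 0.253% became 0 and 0.0459% after thinning, 0.0361% for Gja5 of at least 2, 0.758% and 0.0361% for sums of at least 1 and 3, and 0 (0 of 683) without those marker cells. The share of members among the neighbours of members stayed between 55.1% and 59.7% in 4 other settings. All 24 leading genes against other endothelial cells and all 16 against other Gja5 cells kept their direction and a ratio past 2-fold in each alternative run for them. Alternatives that changed only the minimum CPM or the fold leave ratios as they are, so they could not show otherwise. The leading genes were also picked by their ratios in these same counts. Ratios of mutant to control members were not made, since 7 members is below the minimum of 20, and the mean of per-cell CPM gave no count of calls, having no interval. Depth limits the members' scarce genes: a count of 0 was read as up to a floor of 3 UMIs in their summed total of 1829580.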
